A study of Mus musculus with 12 samples.

Results

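The genes described here are 10 well-known transcriptional targets of the tumour suppressor p53, measured in mouse primary hepatocytes. They were chosen by name, with earlier results of these data known, as Mdm2, Cdkn1a, Ccng1, Sesn1, Trp53inp1, Bax, Bbc3, Pmaip1, Fas and Aen. All 10 were found among the 16728 genes of the expression table, and all 10 were also among the 12275 genes kept for testing by a filter on low counts. The cells came from wild-type mice (WT) or from mice lacking Fxr (KO, labelled Fxr-/-), all labelled as strain C57BL/6. Fxr (gene Nr1h4) is a nuclear receptor for bile acids. Cells of each genotype were treated with AC or FAC, each at 100 µM for 24 h, which gave 4 groups of 3 libraries: WT AC, WT FAC, KO AC and KO FAC. AC libraries carry the numbers 1 to 3 and FAC libraries 4 to 6. The title of the series names iron overload as its subject, and neither AC nor FAC is spelled out in the labels. The labels state neither how the deletion was made nor whether the libraries of a group came from separate animals or cultures, so p-values measure only the spread between these samples, which may be technical.

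p53 is a transcription factor that is stabilised when cells sense DNA damage or other stress. It binds a response element made of a pair of short decamers and switches on genes that stop the cell cycle, adjust metabolism and autophagy, or start apoptosis. Mdm2, itself a target, marks p53 for degradation and so closes a feedback loop. In the liver, p53 targets are known for responses to genotoxic stress and during regeneration.

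The libraries held 16464494 to 18335700 estimated reads and 14243 to 14481 genes with at least 1 read. CPM values are counts scaled to a common library size and serve to compare 1 gene between libraries, whereas FPKM also divides by gene length and serves to compare genes. Reads of Nr1h4 remained in the KO libraries, at 6.97 to 9.35 CPM under AC and 3.54 to 4.89 CPM under FAC, against 12.98 to 15.63 and 6.95 to 7.69 CPM in WT. These are counts over the whole gene, and whether they lie outside a deleted part was not tested. Hepatocyte markers summed to 13820 to 14170 FPKM in WT AC and 14850 to 15700 in KO AC, below the 18450 to 19480 FPKM in WT FAC and 18070 to 19150 in KO FAC. Of the 7 markers 4 were called higher and 1 lower under FAC in WT, 6 higher in KO, and 5 higher and 1 lower in KO against WT under each treatment, although Cps1 (0.61 to 5.1 FPKM) and Tat (1 to 12.43 FPKM) were low. Most of the sum was Alb (9204 to 15300 FPKM), which was the marker called lower in KO. Its log2 fold change was -0.17 under AC (edgeR adjusted p = 0.00773) and -0.35 under FAC (edgeR adjusted p = 2.6e-05). Macrophage markers summed to 335.4 to 393.4 FPKM in WT AC, 599.6 to 647.3 in WT FAC, 492.8 to 609.7 in KO AC and 626.1 to 714.2 in KO FAC. Nearly all of this was Cd68, a lysosomal protein gene that other cells also express, while Clec4f and Ptprc did not exceed 0.1 FPKM. The macrophage genes Adgre1 and Marco went the other way from the sum, at 0.74 to 0.81 and 1.06 to 1.37 FPKM in WT AC, 0.2 to 0.27 and 0.28 to 0.48 in WT FAC, 0.07 to 0.19 and 0.03 to 0.25 in KO AC, and 0.02 to 0.06 and 0 to 0.06 in KO FAC. Both were called lower under FAC in WT (log2 fold changes of -1.64 and -1.70, edgeR adjusted p = 0.00171 and 0.00771) and lower in KO under AC (-2.76 and -2.75, edgeR adjusted p = 2.21e-05 and 0.00022) and under FAC (-2.72 and -2.94, edgeR adjusted p = 0.000524 and 0.00301). Summed markers of sinusoidal endothelium (2.49 to 4.97 FPKM), stellate cells and fibroblasts (1.05 to 1.81 FPKM in WT and 0.03 to 0.39 FPKM in KO) and lymphocytes (0 to 0.1 FPKM) were low. All 4 tested markers of stellate cells and fibroblasts were called lower in KO under both treatments. Of 4 tested endothelial markers, Stab2 was called higher in KO under both treatments and Pecam1 and Kdr were called lower. The cholangiocyte markers Krt19, Krt7, Epcam and Sox9 summed to 12.45 to 20.09 FPKM in the first 3 groups and to 27.4 to 38.27 FPKM in KO FAC, with Krt7 at most at 0.15 FPKM. In bulk samples such as these, fewer cells of a type and less RNA per cell cannot be told apart, and the part of these markers in the results below was not tested.

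Within the KO groups the libraries did not lie close together. On the third principal component of log2 CPM (7.42% of variance) KO AC 1 scored 13.5 against -14.6 and -9.63 for the other KO AC libraries. On the same component KO FAC 6 scored 27.7 and KO FAC 4 scored -22.7, with KO FAC 5 at 3.26. Results that rest on KO libraries are therefore also given, where a call changed, without the pair KO AC 1 and KO FAC 6 and without the pair KO AC 1 and KO FAC 4.

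Start-site regions of the members are shown as a description of their sequence, and whether a match bears on expression was not tested. The windows (250 bases before to 50 after each annotated start, RefSeq, GRCm38.p6) of 8 members, 13 windows in all, were searched on both strands for exact matches to the p53 half-site, the decamer named above, whose matches may overlap. The Pmaip1 window was not used here. Of these 8 genes, 6 had at least 1 match, compared with 9.55% of the 27025 genes with a window. The genes were picked as known p53 targets, so this share is no test of them. By window, 7 of the 13 held a match. Among all 32851 windows 8.36% held a match, and 0.0731% (24 windows) held 2 matches with 0 to 13 bases between them. The window of the upstream Cdkn1a start was among those 24, as no other member window read here was. Its 2 exact matches lay 12 bases apart, beginning 73 and 51 bases before that start. This start is 2790 bases upstream of the other annotated Cdkn1a start, whose window held no match. The decamer directly after the second match differs from the half-site only in its first letter and is left in lower case. Which of these stretches p53 binds was not measured. The 250 bases before the upstream start, chr17:29090729-29090978 on the plus strand, are printed first, 5′ to 3′, with matches in capitals. The 60 bases around the single match of 4 other members follow for comparison, all read along the strand of the gene.
Cdkn1a: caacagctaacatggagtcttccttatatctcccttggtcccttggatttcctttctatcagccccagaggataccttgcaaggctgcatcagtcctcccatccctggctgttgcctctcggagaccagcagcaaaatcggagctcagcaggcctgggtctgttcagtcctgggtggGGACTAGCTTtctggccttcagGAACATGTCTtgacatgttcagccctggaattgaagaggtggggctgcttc
Mdm2: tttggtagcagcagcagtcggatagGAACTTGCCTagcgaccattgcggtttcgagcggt
Ccng1: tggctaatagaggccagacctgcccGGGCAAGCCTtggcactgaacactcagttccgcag
Bax: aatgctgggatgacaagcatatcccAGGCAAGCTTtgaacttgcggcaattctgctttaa
Sesn1: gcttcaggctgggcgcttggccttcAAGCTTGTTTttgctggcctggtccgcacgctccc
The single matches began 186 bases before the Mdm2 start, 185 before the Ccng1 start, 201 before the Bax start and 173 before the downstream Sesn1 start. Aen held its match 10 bases after its first start and 121 bases before its second. Fas, all 3 windows of Bbc3 and the upstream Sesn1 window had no exact match, which says only that these letters were not in these windows. A match is a description of the sequence, and p53 binding was not measured.

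The members covered a wide range of levels per length. Averaged over the 12 libraries, Bax (234 FPKM) and Cdkn1a (233 FPKM) stood highest, above 97.7% and 97.6% of all genes. Their order could not be told, since Cdkn1a ranged from 158.8 to 319.4 FPKM between libraries and Bax from 202.3 to 264.6 FPKM. Ccng1 (62.7 FPKM), Mdm2 (44.5 FPKM), Trp53inp1 (32.6 FPKM) and Aen (20.9 FPKM) followed. In this stretch the ranges of Ccng1 (50.92 to 83.7 FPKM) and Mdm2 (38.3 to 51.16 FPKM) just met, those of Mdm2 and Trp53inp1 (22.87 to 42.25 FPKM) overlapped, and so did those of Trp53inp1 and Aen (16.65 to 24.41 FPKM). Fas averaged 9.26 FPKM and Bbc3 7.05 FPKM, again with overlapping ranges of 2.68 to 14.42 and 5.93 to 9.57 FPKM. Sesn1 (1.56 FPKM) and Pmaip1 (0.762 FPKM) were the lowest, at 0.93 to 2.52 and 0 to 1.49 FPKM, so their tests rest on few reads.

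**Figure D1:**
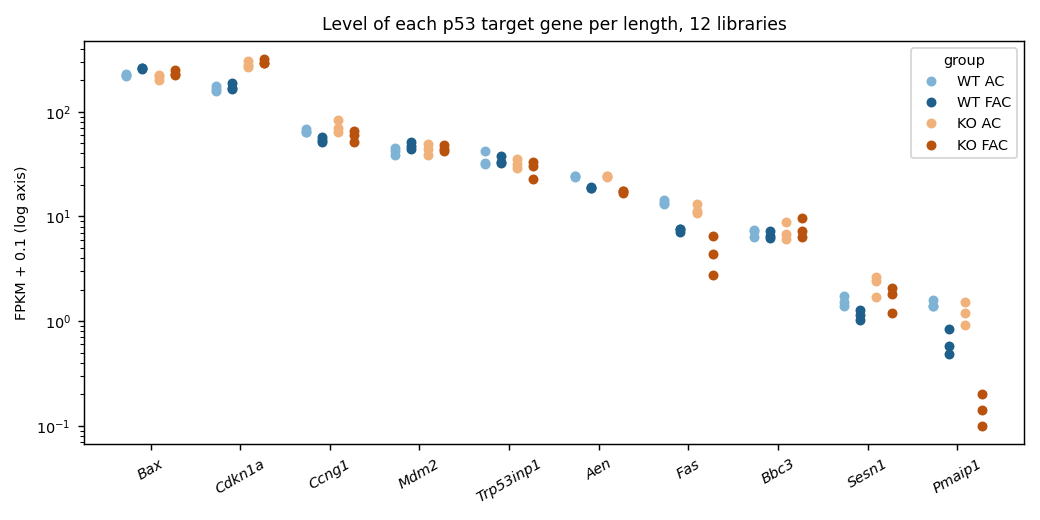
FPKM plus 0.1 on a log axis (vertical) for each of the 10 p53 target genes (horizontal, ordered by mean level), with 1 point per library coloured by group. Bax and Cdkn1a sit highest, Cdkn1a splits by genotype, and Pmaip1 is lowest in the KO FAC libraries.

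The first comparison asked how FAC, against AC, changed these genes in WT and in KO cells. In both genotypes the death genes Pmaip1, Fas and Aen fell and Bax rose, each past an edgeR adjusted p of 0.05. The arrest genes Cdkn1a and Ccng1, the p53 inhibitor Mdm2, and Bbc3, Trp53inp1 and Sesn1 did not pass the test in either genotype. In WT 4 of 10 members were called, 1 higher and 3 lower, where 17.2% of all genes were called (8.7% higher and 8.55% lower). In KO the same count of 4 of 10, again 1 higher and 3 lower, stood against 29.6% of all genes (15% higher and 14.6% lower). The 2 groups' libraries did not overlap for 7 of 10 members in WT and 5 of 10 in KO, against 43.2% and 38.8% of all genes. The median log2 fold change of the members was -0.14 in WT and -0.14 in KO, with medians of -0.00 over all genes. A share of 4 in 10 is above the background in WT and nearer to it in KO, and 10 genes are few for such a reading. The members were also chosen with earlier results of these data known, so this share is no test of the set.

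Pmaip1 encodes Noxa, a BH3-only protein that binds and neutralises the survival protein MCL1, and lies at chromosome 18, 66458604 to 66465558 (GRCm38.p6). It had 3.0, 3.62 and 3.12 CPM in WT AC and 1.19, 0.931 and 1.84 CPM in WT FAC. In KO it had 2.07, 2.82 and 3.55 CPM under AC and 0.122, 0.262 and 0 CPM under FAC. The FAC libraries were below all AC libraries of their genotype, and the KO FAC libraries were the lowest of all 12. The log2 fold change was -1.30 ± 0.32 (SE, n = 3 per group) in WT (edgeR adjusted p = 0.0137). In KO it was -4.44 ± 0.50 (SE, n = 3 per group; edgeR adjusted p = 5.44e-05). These values rest on 179 estimated reads in WT AC and 70 in WT FAC, and on 148 in KO AC and only 6 in KO FAC. The ratio of read shares, AC over FAC, was 2.56 in WT (95% exact binomial interval 1.93 to 3.43) and 24.3 in KO (10.9 to 67.3), intervals that cover counting error only. The WT call was lost without WT FAC 4 (adjusted p = 0.0595) or WT FAC 5 (adjusted p = 0.0741), while the KO call held in all 16 alternative fits.

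Fas encodes the cell-surface death receptor for FASL and lies at chromosome 19, 34290647 to 34327775. It had 16.1, 16.3 and 17.2 CPM in WT AC and 8.35, 9.42 and 9.29 CPM in WT FAC. In KO it had 16.1, 13.9 and 13.7 CPM under AC and 5.73, 9.22 and 3.78 CPM under FAC. Every FAC library was below every AC library in both genotypes, and the KO FAC libraries spread more widely than those of the other groups. The log2 fold changes were -0.87 ± 0.20 in WT (SE, n = 3 per group, edgeR adjusted p = 0.0112) and -1.23 ± 0.22 in KO (edgeR adjusted p = 0.00126). Both calls held in every alternative fit run, with adjusted p of at most 0.0493 in WT and 0.0212 in KO.

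Aen encodes an exonuclease that helps degrade DNA during apoptosis and lies at chromosome 7, 78895927 to 78911209. Its levels were the tightest of the set, with 50.0, 50.9 and 48.4 CPM in WT AC, 39.6, 39.2 and 40.3 CPM in WT FAC, 52.3, 53.4 and 51.7 CPM in KO AC and 40.9, 39.2 and 39.2 CPM in KO FAC. The AC and FAC libraries did not overlap in either genotype. The log2 fold changes were -0.33 ± 0.06 in WT (edgeR adjusted p = 0.0027) and -0.40 ± 0.06 in KO (edgeR adjusted p = 0.000465) and held in every alternative fit run.

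Bax encodes the protein that opens the outer mitochondrial membrane in apoptosis and lies at chromosome 7, 45461695 to 45466903. It had 152.0, 162.3 and 163.2 CPM in WT AC and 194.6, 189.6 and 192.2 CPM in WT FAC. In KO it had 166.6, 173.4 and 150.7 CPM under AC and 208.5, 180.8 and 181.6 CPM under FAC. All FAC libraries were above all AC libraries of the same genotype, with the closest approach in KO. The log2 fold changes were 0.27 ± 0.07 in WT (edgeR adjusted p = 0.0186) and 0.22 ± 0.07 in KO (edgeR adjusted p = 0.0339). The Bax calls were the least secure of this comparison. In WT the call was lost on TPM values and without WT AC 1 or any 1 of the WT FAC libraries (adjusted p = 0.0515 to 0.074). In KO it was lost in 8 of 16 alternative fits, among them TPM (log2 fold change 0.02, adjusted p = 0.794) and the fits without KO AC 3 (adjusted p = 0.144) or KO FAC 4 (adjusted p = 0.107), or without KO AC 1 and KO FAC 4 (adjusted p = 0.089). Bax ends 1809 bases from Ftl1, the ferritin light chain gene, which rose under FAC by 0.79 ± 0.08 on the log2 scale in WT (edgeR adjusted p = 2.88e-05) and 1.03 ± 0.08 in KO (edgeR adjusted p = 3.43e-06). Whether reads of one were counted for the other was not tested.

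The other 2 death genes of the FAC comparison can be set beside these. Bbc3 encodes Puma, a BH3-only protein that binds all the survival members of the BCL2 family, and it had 10.7 to 12.2 CPM in WT AC, 10.3 to 11.99 CPM in WT FAC, 10.4 to 15.5 CPM in KO AC and 11.6 to 18.1 CPM in KO FAC. Its groups overlapped in both genotypes, with log2 fold changes of -0.06 ± 0.17 (edgeR adjusted p = 0.841) and 0.19 ± 0.17 (edgeR adjusted p = 0.429). Trp53inp1 encodes a stress protein that acts in apoptosis and autophagy, and it had 162.0 to 207.3 CPM in WT AC and 168.0 to 194.3 CPM in WT FAC. Its log2 fold changes were 0.00 ± 0.13 in WT (edgeR adjusted p = 0.992) and -0.07 ± 0.13 in KO (edgeR adjusted p = 0.727).

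The regulator and the arrest genes were not called under FAC in either genotype, although the libraries did not overlap for Mdm2, Ccng1 and Sesn1 in WT and for Cdkn1a in KO. Mdm2, whose product is the ubiquitin ligase for p53, had 124.1, 110.0 and 119.0 CPM in WT AC and 136.9, 149.6 and 130.6 CPM in WT FAC. The log2 fold change of 0.24 ± 0.09 did not pass (edgeR adjusted p = 0.0903), except in a fit of the 6 WT libraries alone (adjusted p = 0.0223). Cdkn1a, whose product p21 inhibits cyclin-dependent kinases, had log2 fold changes of 0.10 ± 0.07 in WT (edgeR adjusted p = 0.387) and 0.16 ± 0.07 in KO (edgeR adjusted p = 0.13). Ccng1, encoding cyclin G1, a partner of the Mdm2 feedback loop, had -0.22 ± 0.10 in WT (edgeR adjusted p = 0.133) and -0.21 ± 0.10 in KO (edgeR adjusted p = 0.123). On TPM values Ccng1 was called lower in both genotypes (adjusted p = 0.0223 and 0.00763). Sesn1, encoding sestrin 1, which restrains mTORC1 under stress, had -0.39 ± 0.24 in WT (edgeR adjusted p = 0.279) and -0.30 ± 0.22 in KO (edgeR adjusted p = 0.318). Without KO AC 1 and KO FAC 6 the KO value for Sesn1 was -0.66 and passed (adjusted p = 0.0323).

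**Figure D2:**
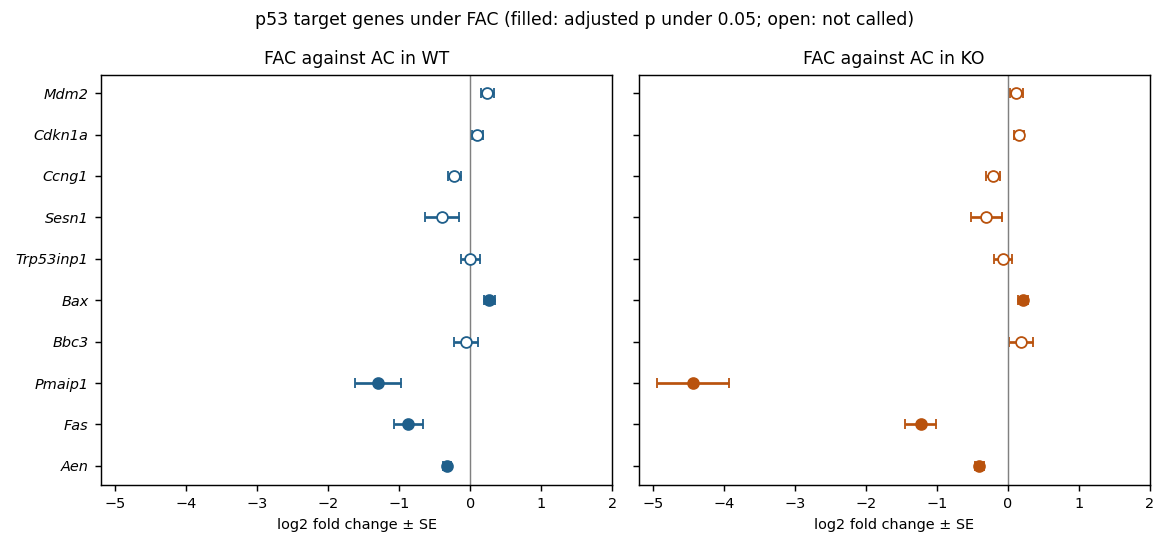
Log2 fold change of FAC against AC (horizontal, ± SE, n = 3 libraries per group) for each member (vertical) in WT (left) and KO (right), with filled points for an edgeR adjusted p under 0.05. Pmaip1, Fas and Aen lie below 0 and Bax above 0 in both panels, and the Pmaip1 value in KO (-4.44) stands far from the rest.

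Whether the FAC effect differed between the genotypes was tested as the difference of the log2 fold changes, KO minus WT. Pmaip1 was the only 1 of 10 members called, and it was called lower, where 3.15% of all genes were called (1.87% higher and 1.28% lower). The Pmaip1 difference was -3.13 ± 0.66 (SE, n = 3 per group, edgeR adjusted p = 0.0252), that is, a larger fall in KO. The call was lost in 7 of 22 alternative fits, including those without WT AC 3 (adjusted p = 0.0667), WT FAC 4 (adjusted p = 0.0536), WT FAC 6 (adjusted p = 0.0654) or KO AC 3 (adjusted p = 0.0561). With limma on log2(FPKM + 1), where the pseudocount compresses a gene at this level, the difference was -0.38 (adjusted p = 0.183). The difference was -0.35 ± 0.30 for Fas (edgeR adjusted p = 0.559), -0.07 ± 0.09 for Aen (edgeR adjusted p = 0.7) and -0.05 ± 0.10 for Bax (edgeR adjusted p = 0.824), so a difference between genotypes was not detectable for these.

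**Figure D3:**
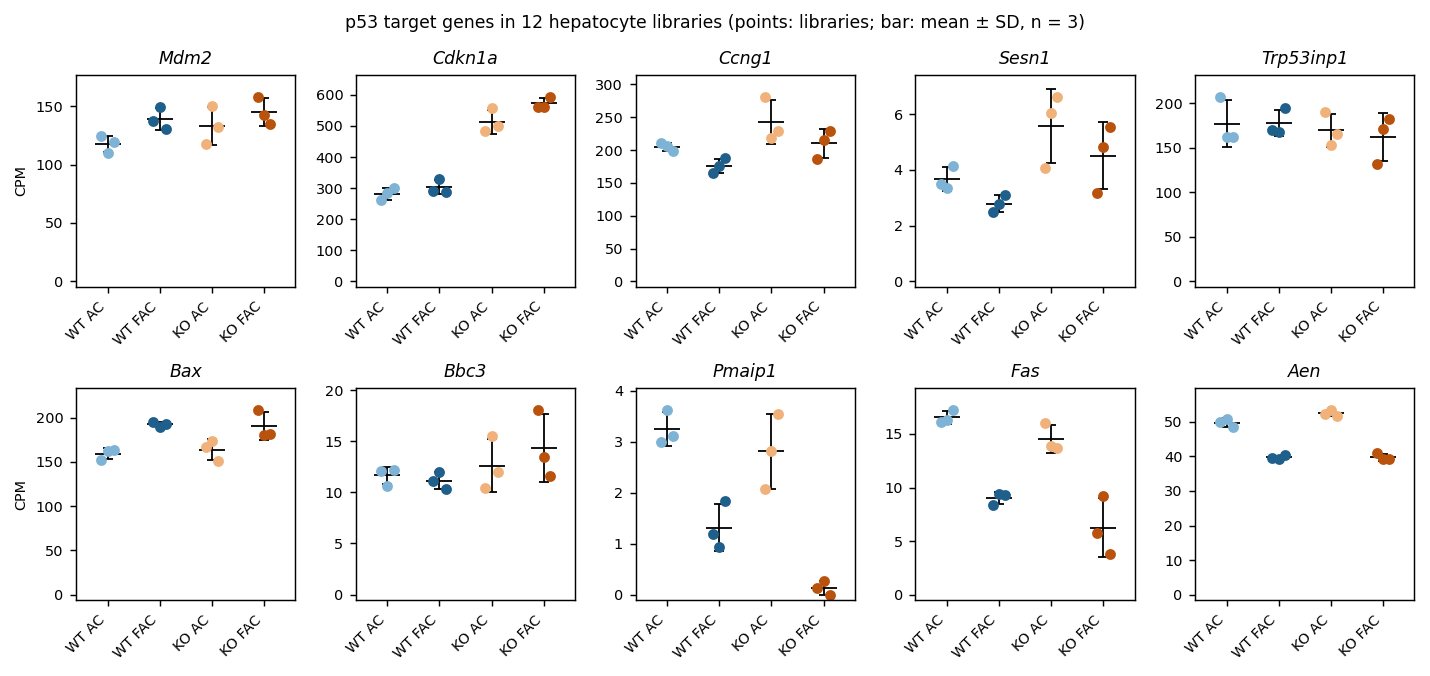
CPM (vertical, from 0) in each library for the 10 members, in 4 groups (horizontal), with points for libraries and bars for the mean ± SD (n = 3). Cdkn1a is higher in all KO than in all WT libraries, Fas, Aen and Pmaip1 are lower in FAC than in AC libraries of the same genotype, and Pmaip1 in KO FAC lies at 0 to 0.262 CPM.

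The next comparison asked how KO cells differed from WT cells under the same treatment. It shares its libraries with the FAC comparisons, so the values are given side by side and not as separate evidence. Cdkn1a was higher in KO under both treatments, by 1.82-fold under AC and 1.89-fold under FAC. Sesn1 was also called higher under both, Ccng1 was called higher under FAC alone, and Pmaip1 was called lower under FAC. Under AC 2 of 10 members were called, both higher, where 42.9% of all genes were called (21.7% higher and 21.2% lower). Under FAC 4 of 10 were called, 3 higher and 1 lower, where 49.5% of all genes were called (24.6% higher and 24.9% lower). The libraries of the genotypes did not overlap for 4 of 10 members under AC and 3 of 10 under FAC, against 53% and 59.1% of all genes. The members were thus called no more often than genes in general, and their median log2 fold changes were 0.10 and 0.03, with all-gene medians of -0.00 and -0.01.

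Cdkn1a lies at chromosome 17, 29090979 to 29100722. It had 262.2, 284.9 and 300.4 CPM in WT AC and 291.7, 329.4 and 287.9 CPM in WT FAC. In KO it had 483.4, 557.9 and 499.5 CPM under AC and 560.3, 562.4 and 594.0 CPM under FAC. The lowest KO library (483.4 CPM) was well above the highest WT library (329.4 CPM). The log2 fold changes, KO against WT, were 0.86 ± 0.08 under AC (SE, n = 3 per group, edgeR adjusted p = 1.1e-06) and 0.92 ± 0.08 under FAC (edgeR adjusted p = 4.34e-07). Both held in all 17 alternative fits, between 0.73 and 0.91 under AC and between 0.72 and 0.98 under FAC.

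The genes whose log2 CPM followed Cdkn1a most closely over the 12 libraries were Bnip3 (Pearson r = 0.992), Ass1 (0.991), Pthlh (0.991), Arg1 (0.99) and Vti1a (0.99). Bnip3 encodes a mitochondrial protein of mitophagy, and Ass1 and Arg1 encode urea cycle enzymes. Mean FPKM of Ass1 in WT AC, WT FAC, KO AC and KO FAC was 95.4, 98.6, 244.3 and 311.7, and that of Arg1 was 1.33, 1.99, 30.2 and 41.4. The likeness to Cdkn1a thus followed the step between genotypes, which all 12 libraries share. For Mdm2, which had no such step, the closest genes were Stam (0.956), Rpap2 (0.946), Tmc7 (0.94), Naf1 (0.934) and Hsdl1 (0.93). The correlations describe libraries of 4 groups and carry no test.

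Sesn1 lies at chromosome 10, 41810574 to 41908436. It had 3.49, 3.35 and 4.16 CPM in WT AC, 2.48, 2.79 and 3.10 CPM in WT FAC, 4.07, 6.03 and 6.63 CPM in KO AC, and 3.17, 4.84 and 5.53 CPM in KO FAC. The lowest KO AC library fell within the WT AC range, and the lowest KO FAC library was just above the highest WT FAC library. The log2 fold changes were 0.60 ± 0.22 under AC (edgeR adjusted p = 0.0414) and 0.69 ± 0.23 under FAC (edgeR adjusted p = 0.0247). Each call was lost in 8 of 17 alternative fits: with limma on FPKM or TPM, under AC without any 1 WT AC library, KO AC 2 or KO AC 3 (adjusted p up to 0.154), and under FAC without WT FAC 4, WT FAC 5, KO FAC 5 or KO FAC 6 (adjusted p up to 0.11). Without KO AC 1 and KO FAC 6 the value under FAC was 0.52 (adjusted p = 0.0594). Sesn1 lies 27 bases from Armc2 and 706 bases from Cep57l1, and no strand setting for counting was stated, so reads of these neighbours may not be told apart.

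Ccng1 lies at chromosome 11, 40748552 to 40755309. Under AC it had 211.2, 205.4 and 198.5 CPM in WT and 281.2, 218.1 and 228.5 CPM in KO. Under FAC it had 165.1, 175.2 and 187.1 CPM in WT and 186.3, 215.2 and 229.2 CPM in KO. KO libraries were above WT libraries under AC, with KO AC 1 far above the others, and the groups overlapped under FAC. The log2 fold changes were 0.24 ± 0.10 under AC (edgeR adjusted p = 0.0571) and 0.26 ± 0.10 under FAC (edgeR adjusted p = 0.0397). The call under FAC was lost in 7 of 17 alternative fits, with limma on FPKM (adjusted p = 0.315) or TPM (adjusted p = 0.658) and without WT FAC 4 (0.143), WT FAC 5 (0.0911), KO FAC 5 (0.101) or KO FAC 6 (0.141), these being adjusted p-values.

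Among the death genes, Pmaip1 did not differ detectably by genotype under AC, with a log2 fold change of -0.21 ± 0.29 (edgeR adjusted p = 0.595). Under FAC it was lower in KO by 3.34 ± 0.56 (a log2 fold change of -3.34, edgeR adjusted p = 0.000287), on 70 reads in WT and 6 in KO, and this call held in all 17 alternative fits. Fas under FAC had -0.54 ± 0.22 (edgeR adjusted p = 0.0586) and passed in 6 of 17 alternatives, among them DESeq2 (adjusted p = 0.043) and the fit without KO FAC 5 (-0.93, adjusted p = 0.000815). KO FAC 5 held 9.22 CPM of Fas, in the range of the WT FAC libraries, whereas KO FAC 4 and 6 were below it. Bbc3 under FAC had 0.37 ± 0.17 (edgeR adjusted p = 0.0871) and passed without KO FAC 6 (0.50, adjusted p = 0.0256) and without KO AC 1 and KO FAC 6 (0.50, adjusted p = 0.0101). Under AC, Bax (0.04 ± 0.07, edgeR adjusted p = 0.685) and Aen (0.08 ± 0.06, edgeR adjusted p = 0.335) were not called. Under FAC, Bax (-0.01 ± 0.07, edgeR adjusted p = 0.884) and Aen (0.00 ± 0.06, edgeR adjusted p = 0.966) were not called either. On FPKM and TPM values, however, Bax under FAC was called lower in KO (adjusted p = 0.0409 with FPKM + 1 and 0.00313 with TPM).

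Mdm2 (0.18 ± 0.09 under AC, edgeR adjusted p = 0.133) and Trp53inp1 (-0.06 ± 0.13, edgeR adjusted p = 0.727) were not called between genotypes under AC. Under FAC the Mdm2 value was 0.06 ± 0.09 (edgeR adjusted p = 0.613) and the Trp53inp1 value -0.13 ± 0.13 (edgeR adjusted p = 0.415). Mdm2 under AC passed without KO AC 1 (0.26, adjusted p = 0.0323) and without that library and KO FAC 6 (0.26, adjusted p = 0.0185) or KO FAC 4 (0.26, adjusted p = 0.0126). In KO AC 1 Mdm2 stood at 117.9 CPM, against 150.2 and 131.8 CPM in the other KO AC libraries. The higher Cdkn1a in KO was therefore seen without a called rise of Mdm2 in the fit of all 12 libraries.

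**Figure D4:**
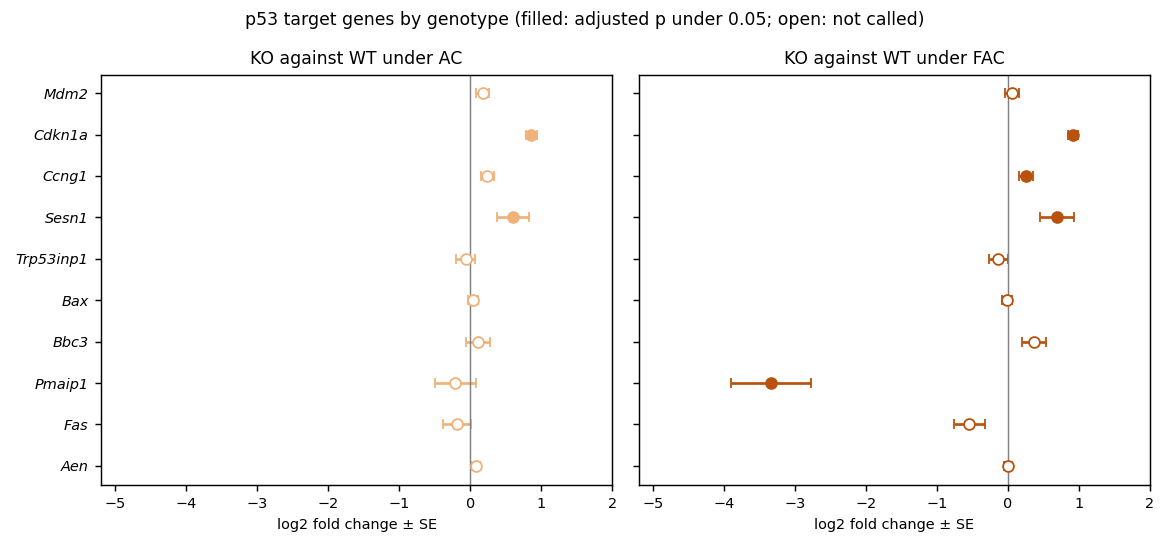
Log2 fold change of KO against WT (horizontal, ± SE, n = 3 libraries per group) for each member (vertical) under AC (left) and FAC (right), with filled points for an edgeR adjusted p under 0.05. Cdkn1a and Sesn1 are filled above 0 in both panels, and Pmaip1 is filled at -3.34 under FAC.

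Trp53, the gene of p53 itself, was not changed detectably by FAC, with log2 fold changes of -0.11 ± 0.13 in WT (edgeR adjusted p = 0.603) and -0.09 ± 0.13 in KO (edgeR adjusted p = 0.609). It was lower in KO than in WT, by -0.36 ± 0.13 under AC (edgeR adjusted p = 0.0374) and -0.34 ± 0.13 under FAC (edgeR adjusted p = 0.0396). Trp53 had 137.5 to 149.6 CPM in WT AC, 105.7 to 122.6 in KO AC, 129.7 to 141.6 in WT FAC, and 115.6, 122.9 and 78.9 in KO FAC. These calls were lost in 5 and 6 of 17 alternative fits. Under AC the losses came without any 1 WT AC library, KO AC 2 or KO AC 3, and under FAC without any 1 WT FAC library or KO FAC 6, without KO AC 1 and KO FAC 6, or in a fit of the 6 libraries alone (adjusted p up to 0.116 and 0.127). Mdm4, the partner of Mdm2 that masks p53, was lower in KO by -0.47 ± 0.11 under AC (edgeR adjusted p = 0.00509) and -0.79 ± 0.12 under FAC (edgeR adjusted p = 9.05e-05), and these held in every alternative run. Its value of -0.34 ± 0.12 under FAC in KO (edgeR adjusted p = 0.0431) no longer passed when KO AC 2, KO AC 3 or any 1 KO FAC library was left out. Ppm1d, the phosphatase that dampens p53, was called in no comparison, with edgeR adjusted p from 0.283 to 0.898.

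Of 12 tested p53 regulators, 9 were lower and 1 was higher in KO under AC, and 8 were lower and 1 higher under FAC. Among all genes 21.2% were called lower and 21.7% higher under AC, and 24.9% lower and 24.6% higher under FAC. The list's median log2 fold changes were -0.42 and -0.48, with all-gene medians of -0.00 and -0.01, and the list itself was not tested. The damage kinases Atm (-0.97 ± 0.19 under AC, edgeR adjusted p = 0.0017, and -0.97 ± 0.20 under FAC, edgeR adjusted p = 0.00146) and Atr (-0.61 ± 0.16, edgeR adjusted p = 0.00792, and -0.87 ± 0.16, edgeR adjusted p = 0.00066) were among the lower genes. The checkpoint kinase gene Chek1 was lower under AC (-1.16 ± 0.22, edgeR adjusted p = 0.000929). The exception was Rchy1, the ubiquitin ligase Pirh2, which was higher (0.46 ± 0.08 under AC, edgeR adjusted p = 0.000296, and 0.24 ± 0.07 under FAC, edgeR adjusted p = 0.0171). The Rchy1 call under FAC was lost on FPKM and TPM values and without WT FAC 6, KO FAC 4 or KO FAC 5. Without KO AC 1 and KO FAC 6 the counts were 9 lower and 1 higher under AC and 6 lower and 1 higher under FAC. Under FAC treatment in WT only Rchy1 (0.44 ± 0.08, edgeR adjusted p = 0.00144) and the kinase gene Hipk2 (-0.54 ± 0.10, edgeR adjusted p = 0.00314) were called, 2 of 12 where 17.2% of all genes were. In KO Rchy1 was called higher (0.22 ± 0.07, edgeR adjusted p = 0.0428), and Hipk2 (-0.38 ± 0.10, edgeR adjusted p = 0.0149), Trp53bp1 (-0.36 ± 0.12, edgeR adjusted p = 0.035) and Mdm4 were called lower, 4 of 12 where 29.6% of all genes were called. The KO calls of Rchy1, Hipk2 and Trp53bp1 were lost in 10, 6 and 6 of 16 alternatives, including fits without KO AC 3 and without KO FAC 5.

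A further 32 p53 targets were tested. Under FAC 1 was higher and 6 were lower in WT (median -0.11), and 4 were higher and 6 lower in KO (median -0.08). These 7 and 10 of 32 called genes lie near the 17.2% and 29.6% of all genes called, so the totals are no result about the list. Split by direction, 8.7% of all genes were called higher and 8.55% lower in WT, and 15% higher and 14.6% lower in KO. Between genotypes 11 were higher and 5 lower in KO under AC (median 0.22), and 14 were higher and 3 lower under FAC (median 0.29). The totals of 16 and 17 of 32 are likewise near the 42.9% and 49.5% of all genes called. By direction, 21.7% of all genes were called higher and 21.2% lower under AC, and 24.6% higher and 24.9% lower under FAC. Without KO AC 1 and KO FAC 6 these were 11 and 5 under AC and 14 and 4 under FAC. TPM values shifted the median of all genes by -0.10 to -0.17 in the pairwise comparisons. On that scale the counts were 7 higher and 8 lower under AC and 6 higher and 8 lower under FAC. Over all 12275 genes it gave 1823 higher and 3838 lower under AC, and 1942 higher and 4947 lower under FAC. Higher calls thus no longer outnumbered lower ones in the list, and over all genes lower calls outnumbered higher ones as well. For FAC against AC the same scale gave 1 higher and 12 lower in WT and 2 higher and 13 lower in KO. The counts over all 12275 genes were 578 higher and 1951 lower in WT, and 862 higher and 3808 lower in KO.

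Of the arrest targets, Plk3, a stress-responsive kinase gene, rose under FAC in WT (0.87 ± 0.14, edgeR adjusted p = 0.000971) and in KO (0.67 ± 0.13, edgeR adjusted p = 0.00251). It was also higher in KO under AC (0.75 ± 0.14, edgeR adjusted p = 0.000905). Gtse1, a gene of p53 export and of the G2 phase, had 15.8, 17.5 and 16.8 CPM in WT AC and 8.30, 8.10 and 7.63 CPM in WT FAC. In KO it had 17.6, 16.7 and 16.1 CPM under AC and 16.7, 15.2 and 13.7 CPM under FAC. Only the WT FAC libraries were low. The fall in WT was -1.06 ± 0.10 (edgeR adjusted p = 1.7e-05), and the KO minus WT difference was 0.91 ± 0.14 (edgeR adjusted p = 0.00564). Btg2, an antiproliferative gene, was higher in KO under AC (1.05 ± 0.14, edgeR adjusted p = 9.8e-05) and fell under FAC in KO (-0.68 ± 0.14, edgeR adjusted p = 0.00358). Psrc1 fell under FAC in KO (-0.81 ± 0.22, edgeR adjusted p = 0.0145), a call lost without KO AC 1 or KO FAC 4, and was lower in KO under FAC (-0.92 ± 0.22, edgeR adjusted p = 0.00334). Also higher in KO under FAC were Gtse1 (0.92 ± 0.10, edgeR adjusted p = 6.91e-06), Plk3 (0.54 ± 0.13, edgeR adjusted p = 0.00403) and Btg2 (0.46 ± 0.14, edgeR adjusted p = 0.0169). The Plk3 call was lost on TPM values (adjusted p = 0.059), and the Btg2 call on FPKM and TPM values and without WT FAC 4, WT FAC 5 or KO FAC 4. Gadd45a, a stress gene of growth arrest, was higher in KO under AC (0.57 ± 0.18, edgeR adjusted p = 0.0253), which was lost in 7 of 17 alternatives, including those without WT AC 1, WT AC 2 or KO AC 2 and, with the replicate number as a block, at an adjusted p up to 0.106.

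Of the apoptosis targets, Phlda3, an inhibitor of AKT, was higher in KO under AC (0.40 ± 0.08, edgeR adjusted p = 0.00174) and FAC (0.71 ± 0.08, edgeR adjusted p = 1.61e-05). Eda2r, a receptor of the TNF family, was higher as well (0.51 ± 0.10, edgeR adjusted p = 0.00104, and 0.64 ± 0.10, edgeR adjusted p = 0.00016). Both fell under FAC in WT, Phlda3 by -0.30 ± 0.08 (edgeR adjusted p = 0.0267) and Eda2r by -0.37 ± 0.10 (edgeR adjusted p = 0.0223), calls that were both lost without WT AC 3, WT FAC 4 or WT FAC 6. The Phlda3 call was also lost without WT AC 2 or WT FAC 5, and the Eda2r call without WT AC 1. Apaf1, the core of the apoptosome, moved the other way between genotypes, with -0.41 ± 0.10 under AC (edgeR adjusted p = 0.006) and -0.82 ± 0.11 under FAC (edgeR adjusted p = 2.86e-05). It fell under FAC in KO (-0.62 ± 0.11, edgeR adjusted p = 0.00098). Tnfrsf10b, the TRAIL receptor gene, fell under FAC in KO (-0.37 ± 0.09, edgeR adjusted p = 0.0067) and was higher in KO under AC (0.45 ± 0.09, edgeR adjusted p = 0.00119).

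Siva1, a death receptor adaptor gene, was lower in KO under AC (-0.56 ± 0.15, edgeR adjusted p = 0.00961), a call lost without WT AC 3 (adjusted p = 0.0572). Its rise under FAC in KO (0.44 ± 0.15, edgeR adjusted p = 0.0433) was lost without any 1 of the KO libraries, and its KO minus WT difference (0.85 ± 0.21, edgeR adjusted p = 0.0473) was lost in 13 of 22 alternatives. Of those, 10 left out a single library, all but WT AC 2 and KO FAC 4. The membrane gene Perp was lower in KO under AC (-0.27 ± 0.07, edgeR adjusted p = 0.00641). Rps27l was higher in KO under FAC (0.29 ± 0.09, edgeR adjusted p = 0.0136), which was lost on FPKM and TPM values and without WT FAC 5 or KO FAC 5.

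Of the 5 repair and nucleotide targets, Ercc5 was lower under FAC in WT (-0.46 ± 0.11, edgeR adjusted p = 0.0104), a call lost without WT FAC 4 (adjusted p = 0.0508). It was lower in KO too (-0.36 ± 0.11, edgeR adjusted p = 0.0217), lost when any 1 of KO AC 2 and 3 or KO FAC 4 and 5 was left out. Rrm2b, a ribonucleotide reductase subunit gene, rose under FAC in KO (0.61 ± 0.16, edgeR adjusted p = 0.0133), and this call was lost without KO AC 3 and without KO AC 1 and KO FAC 6.

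Of the metabolic and autophagy targets, Gls2, the liver glutaminase gene, was higher in KO under AC (0.84 ± 0.10, edgeR adjusted p = 3.05e-05) and FAC (0.58 ± 0.11, edgeR adjusted p = 0.000516). Ephx1, a xenobiotic epoxide hydrolase gene, was higher in KO under FAC (0.63 ± 0.10, edgeR adjusted p = 0.000295) and fell under FAC in WT (-0.50 ± 0.10, edgeR adjusted p = 0.00529). Under AC its value was 0.32 ± 0.10 (edgeR adjusted p = 0.0253), a call lost without WT AC 1, WT AC 3 or KO AC 1. Lpin1, a phosphatidate phosphatase gene, was higher in KO under AC (0.50 ± 0.13, edgeR adjusted p = 0.00648) and FAC (0.55 ± 0.13, edgeR adjusted p = 0.00287), calls lost only on TPM values. Gls2 fell under FAC in KO (-0.38 ± 0.10, edgeR adjusted p = 0.0149), lost when KO AC 2, KO AC 3 or KO FAC 5 was left out. Dram1, a lysosomal autophagy gene, went the other way, with 6.44, 7.52 and 7.17 CPM in WT AC and 1.78, 1.38 and 1.69 CPM in KO AC. The groups were far apart, with a log2 fold change of -2.12 ± 0.17 (edgeR adjusted p = 6.05e-07), and under FAC it was -1.01 ± 0.18 (edgeR adjusted p = 0.00038). Dram1 fell under FAC in WT (-0.77 ± 0.15, edgeR adjusted p = 0.00427). Its KO minus WT difference of 1.11 ± 0.25 (edgeR adjusted p = 0.0335) and that of the ferredoxin reductase gene Fdxr of 1.0 ± 0.20 (edgeR adjusted p = 0.0199) were lost in 9 and 5 of 22 alternatives, in both cases without WT FAC 4, WT FAC 6, KO AC 3 or KO FAC 5. The Dram1 call was also lost when WT AC 2 or 3, WT FAC 5 or KO AC 2 was left out. Fdxr rose under FAC in KO (0.71 ± 0.14, edgeR adjusted p = 0.00253) and was lower in KO under AC (-0.59 ± 0.14, edgeR adjusted p = 0.00491). Under FAC it was higher in KO (0.41 ± 0.14, edgeR adjusted p = 0.0244), a call lost on FPKM and TPM values and without WT FAC 4, WT FAC 6 or KO FAC 5.

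**Figure D5:**
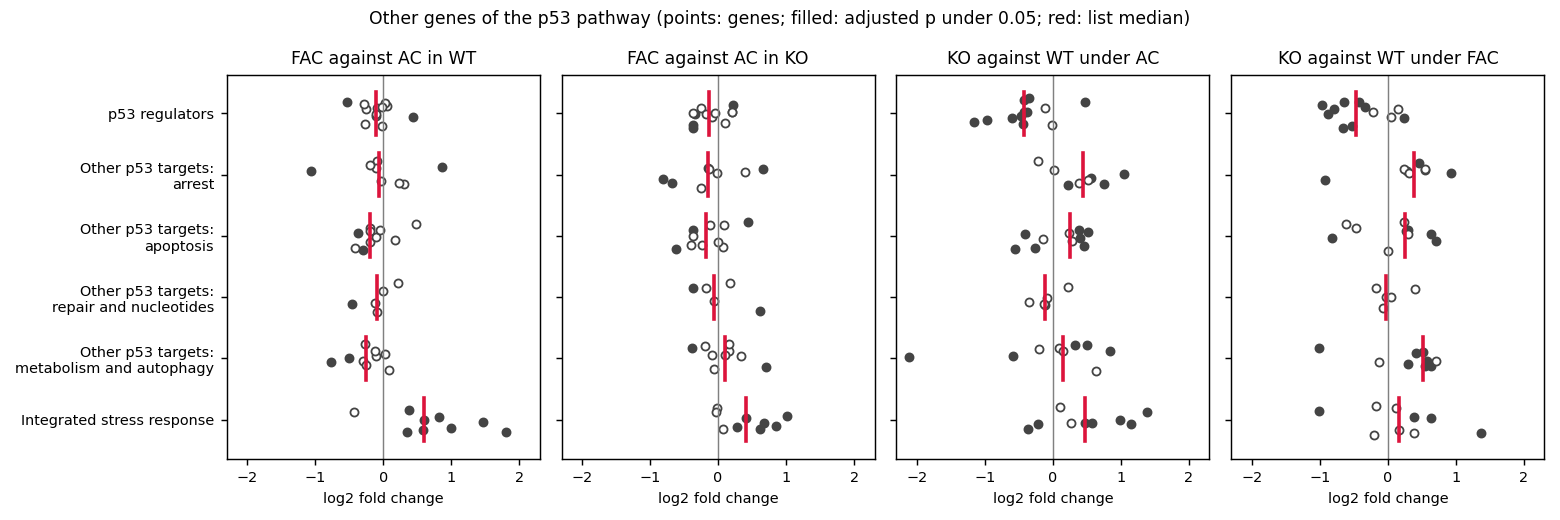
Log2 fold change (horizontal) of each tested gene in 6 lists (vertical) for 4 comparisons (panels), with filled points for an edgeR adjusted p under 0.05 and a red line at the list median. The regulators lie mostly below 0 in KO against WT (medians -0.42 and -0.48), and the stress response genes lie mostly above 0 under FAC (medians 0.59 and 0.41).

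The partners of the death genes were read beside them. Of 14 tested genes of the BCL2 family and death receptor signalling, 1 was higher and 1 lower under FAC in WT, and 2 were higher and 4 lower in KO. Of all genes 17.2% were called in WT and 29.6% in KO. The count of 2 of 14 in WT was not above the background and that of 6 of 14 in KO was above it by few genes. Those 6 include Mcl1, Casp9 and Bik, whose KO calls were lost in several alternatives, and 14 genes are few for such a reading. Mcl1, the survival protein that Noxa binds, rose under FAC in WT (0.30 ± 0.08, edgeR adjusted p = 0.0167) and KO (0.26 ± 0.08, edgeR adjusted p = 0.0222). The WT call was lost on TPM values and without WT AC 1, WT AC 3, WT FAC 4 or WT FAC 5, and the KO call on FPKM and TPM values and without KO AC 3 or KO FAC 4. Bcl2l11, encoding the BH3-only protein Bim, fell in WT (-0.61 ± 0.13, edgeR adjusted p = 0.00497) and KO (-0.68 ± 0.13, edgeR adjusted p = 0.00172). Between genotypes 1 was higher and 3 were lower in KO under AC, and 1 higher and 6 lower under FAC, against 42.9% and 49.5% of all genes called (21.2% and 24.9% lower). The BH3-only genes Bik (-1.24 ± 0.21 under AC, edgeR adjusted p = 0.000463, and -1.74 ± 0.23 under FAC, edgeR adjusted p = 4.07e-05) and Bmf (-1.41 ± 0.25, edgeR adjusted p = 0.000966, and -1.43 ± 0.26, edgeR adjusted p = 0.000719) were lower in KO. Fadd, the adaptor of Fas, was lower under AC (-0.35 ± 0.11, edgeR adjusted p = 0.0188), which was lost without WT AC 2 or KO AC 3, and under FAC (-0.77 ± 0.11, edgeR adjusted p = 7.17e-05). Bik under FAC in KO (-0.70 ± 0.25, edgeR adjusted p = 0.0476), Casp9 under FAC in KO (0.32 ± 0.09, edgeR adjusted p = 0.0165) and Bad in KO under FAC (0.40 ± 0.15, edgeR adjusted p = 0.0399) were called but lost in 8 of 16, 7 of 16 and 9 of 17 alternatives, each of them without KO FAC 6. Bik was also lost without KO AC 1, KO AC 2 or KO FAC 4, Casp9 without KO AC 2 or KO AC 3, and Bad without WT FAC 4, WT FAC 5 or KO FAC 5.

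Pmaip1 and Tnfrsf10b can also be switched on by the integrated stress response, so that list was read in parallel. Of its 9 genes, 8 rose under FAC in WT and 6 in KO, where 5 rose without KO AC 1 and KO FAC 6. Of all genes 8.7% were called higher in WT and 15% in KO. Ddit3, encoding CHOP, had 17.8 to 23.3 CPM in WT AC, 68.5 to 74.1 in WT FAC, 21.5 to 22.5 in KO AC and 34.9 to 36.1 in KO FAC. It rose by 1.8 ± 0.09 in WT (edgeR adjusted p = 5.43e-08) and 0.68 ± 0.09 in KO (edgeR adjusted p = 0.000166), with a KO minus WT difference of -1.12 ± 0.13 (edgeR adjusted p = 0.000558). Under FAC Ddit3 rose and Pmaip1 fell in both genotypes, and whether this response bears on Pmaip1 here was not tested. Nupr1, a stress-induced chromatin protein gene, rose by 1.46 ± 0.20 in WT (edgeR adjusted p = 0.000386) and 1.02 ± 0.19 in KO (edgeR adjusted p = 0.00236). Atf3 in WT (0.99 ± 0.29, edgeR adjusted p = 0.0452) was called, and lost without any 1 WT library. The asparagine synthetase gene Asns rose in KO (0.85 ± 0.08, edgeR adjusted p = 1.89e-05), with a difference of 0.50 ± 0.12 (edgeR adjusted p = 0.0373) that was lost in 10 of 22 alternatives, among them each fit without a WT library. Between genotypes 5 of the 9 were higher and 2 lower in KO under AC, and 3 were higher and 1 lower under FAC, where 42.9% and 49.5% of all genes were called. Higher in both were Vldlr (0.98 ± 0.14, edgeR adjusted p = 0.00016, and 1.36 ± 0.14, edgeR adjusted p = 8.03e-06) and Ppp1r15a (1.14 ± 0.15, edgeR adjusted p = 6.73e-05, and 0.63 ± 0.14, edgeR adjusted p = 0.00334). Atf3 was higher under AC (1.38 ± 0.29, edgeR adjusted p = 0.00419) and Atf4 under FAC (0.39 ± 0.09, edgeR adjusted p = 0.00246), while Asns (-0.37 ± 0.08, edgeR adjusted p = 0.00271) and Trib3 (-0.22 ± 0.08, edgeR adjusted p = 0.0466, lost in 8 of 17 alternatives, including without WT AC 2, WT AC 3, KO AC 1 or KO AC 2) were lower under AC and Ddit3 under FAC (-1.01 ± 0.09, edgeR adjusted p = 7.07e-07).

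The cell cycle genes that p21 represses through the DREAM complex were near the floor. Only 7 of 12 passed the filter, and the A-type cyclin gene Ccna2 had 1.14 to 1.75 CPM in WT AC and 0.115 to 0.332 CPM in KO AC. Under AC Ccna2 (-2.60 ± 0.45, edgeR adjusted p = 0.000446) and Top2a (-1.67 ± 0.38, edgeR adjusted p = 0.00324) were lower in KO. Under FAC Top2a was lower in KO (-1.45 ± 0.43, edgeR adjusted p = 0.0124), lost without KO FAC 5 (adjusted p = 0.0527), and the B-type cyclin gene Ccnb2 was called higher (1.69 ± 0.48, edgeR adjusted p = 0.0102). Ccna2 was called higher under FAC in KO (1.61 ± 0.50, edgeR adjusted p = 0.0275), a call that no longer passed when KO AC 1, KO AC 3 or KO FAC 6 was left out.

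Of the paralogs of the members that were tested, Ccng2, Sesn3 and Sesn2 were called higher in KO under FAC, as Ccng1 and Sesn1 were. Mdm4, the paralog of Mdm2 described above, was called lower in KO under both treatments, while Cdkn1b, Bak1 and Trp53inp2 were not called. For Cdkn1b, encoding the related inhibitor p27, levels were 9.09 to 12.73 FPKM over all libraries, and it was not called in any comparison (edgeR adjusted p from 0.515 to 0.926). Cdkn1c held at most 0.22 FPKM and was not tested. Bak1, the partner of Bax in the mitochondrial membrane, lay at 42.31 to 51.53 FPKM, below Bax, and was not called (edgeR adjusted p from 0.152 to 0.914). The cyclin G2 gene Ccng2 was higher in KO under FAC (0.57 ± 0.16, edgeR adjusted p = 0.00922), and so was Sesn3 (0.66 ± 0.18, edgeR adjusted p = 0.00888). Sesn3 had 24.27, 15.3 and 14.61 CPM in KO FAC, highest in KO FAC 4, and 10.21 to 12.65 CPM in WT FAC. Under AC its groups overlapped, at 14.01 to 16.2 CPM in WT and 11.64 to 15.94 CPM in KO. Sesn2 (7.37 to 11.54 FPKM) was more abundant per length than Sesn1 in every library. Its value in KO under FAC was 0.29 ± 0.11 (edgeR adjusted p = 0.0422), lost in 11 of 17 alternatives, among them each fit without a WT FAC library, KO FAC 5 or KO FAC 6. Trp53inp2 was not called (edgeR adjusted p from 0.388 to 0.858).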

How the data were processed

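RNA was measured in 12 libraries, 3 in each of 4 groups. The submitters' processing notes name RSEM, with no version, and the builds mm10 and GRCm38.p6. Aligner, annotation release and strand setting are not given in the sources used here. Estimated counts per gene without normalization, FPKM (per length and depth) and TPM values were deposited by the authors. Another 8 numeric columns belonged to no mapped library and stayed unused.

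Estimated counts were rounded, scaled by TMM and tested with a robust quasi-likelihood fit over the 4 groups in edgeR 4.0.16 (R 4.3.3). The filter filterByExpr with a minimum count of 10 kept 12275 of 16728 genes. Benjamini-Hochberg adjustment ran over all 12275 genes, with 0.05 as the threshold for a call. Each SE was derived from the test statistic. The biological coefficient of variation was 10.8%. The fit was tested on simulated data.

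Alternatives were median-of-ratios scaling, no low-count filter, FPKM of 1 or more in 3 libraries as the filter, limma 3.58.1 on log2(FPKM + 1), log2(FPKM + 0.1) and log2(TPM + 1), DESeq2 1.42.0, the 6 libraries compared alone, the replicate number as a block, and each library left out. Leaving out KO AC 1 with KO FAC 6 or with KO FAC 4 was added after the data were seen. The members and lists were chosen with earlier results of these data known. Named were the 10 members, Trp53, Mdm4, Ppm1d and the members' paralogs, up to 3 called genes per direction of each list, and the 5 genes most like Cdkn1a and Mdm2 by Pearson r. One gene taken by this rule is counted with its list but not reported here by name. Ftl1 and Nr1h4 were added as a neighbour and as the deleted gene. Promoters were matched by gene identifier; Trp53inp1 had no entry. Figures were drawn with matplotlib 3.10.9.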

Additional observations from a re-analysis of the deposited data

Results flagged for a closer look

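Pmaip1 was singled out because its FAC effect differed between the genotypes by a test of the difference itself, with a KO minus WT difference of -3.13 on the log2 scale (edgeR adjusted p = 0.0252). It fell in 3 of 3 FAC libraries against all AC libraries in both genotypes. Only 6 estimated reads lay behind the KO FAC group, and 1 of its libraries was at 0.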

How the results depend on the processing

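Of 860 member values recomputed under an alternative, 791 stayed on the same side of the threshold, 45 calls were lost, 23 were gained and 1 changed sign with a call: Aen in KO against WT under FAC was -0.19 on TPM values (adjusted p = 0.0205). Among the 791, 66 values of 8 members changed sign without being called in either fit. The number of members called ranged over single left-out libraries from 2 to 4 for FAC in WT, 3 to 4 for FAC in KO, 0 to 1 for the difference, 1 to 3 for KO under AC and 2 to 4 for KO under FAC. For the difference limma on log2(FPKM + 1) and on log2(TPM + 1) and edgeR with the replicate block each called 0 members (1 at an unadjusted p under 0.05), while DESeq2 called 1. For KO under AC limma called 1 member with FPKM + 1, 1 with FPKM + 0.1 and 1 with TPM + 1. Whether same-numbered samples were paired could not be told. Correlations of same-numbered deviations ran from -0.142 to 0.208, and 2 of 6 samples matched their own number best. Each sample was compared with only 3 libraries, so this check cannot decide whether a number stands for a shared preparation. With the replicate block the Pmaip1 difference was -3.10 (adjusted p = 0.0797), 3 members were called in KO under AC and 5 under FAC. Over all genes the difference had 387 calls, against 84 with the replicate block, 658 with DESeq2, 584 with limma on log2(FPKM + 1) and 1918 without KO AC 1 and KO FAC 4. FAC in WT had 2117 calls and 3345 when only the 6 libraries were fitted, and FAC in KO had 3633 and 2199. Higher calls numbered 578 of 2529 for FAC in WT and 862 of 4670 for FAC in KO on TPM values. For KO they were 1823 of 5661 under AC and 1942 of 6889 under FAC. The cause of these changes was not tested. Depth limits Pmaip1 and Sesn1 most.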
